A study of Mus musculus with 7 samples.

Results

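Binding of PU.1 was compared between myeloid precursors (MPs) and the same kind of cells after 36 h of RANKL, the cytokine that commits MPs to the osteoclast (OC) lineage. Every PU.1 peak on chromosomes 1 to 19 and X of these 2 libraries was used, 76159 peaks from MPs and 71879 peaks at 36 h. Together these are 148038 of the 239001 peaks in the 7 lists of the series, which also cover PU.1 after 72 h of RANKL, MITF at the same stages and non-specific IgG in MPs. Bone marrow was flushed from C57BLACK6 mice of 4 to 6 weeks, and the cells were grown for 3 days in 50 ng/ml CSF1, the macrophage growth factor that both groups share. MPs received CSF1 only, and the 36 h cells also received RANKL at 100 ng/ml. The antibody to PU.1 was raised in the laboratory, and 5 µg went into each precipitation. No sorting of the cultures and no number of mice per library is stated in the sources used here. Each condition was 1 library, so no test here compares conditions, and each p-value below compares 2 libraries.

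PU.1 is an ETS family transcription factor that defines the myeloid lineage and binds purine-rich DNA around a GGAA core. It can bind alone or next to a partner, as at composite elements where IRF4 or IRF8 sits beside it. RANKL signals through RANK to NF-kB, to AP-1 factors of the FOS and JUN families and to NFATc1, and IRF8 is known to restrain OC formation.

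A peak is a genomic interval in which sequenced fragments, called tags, pile up. The list scores come in whole steps of what 1 tag is worth, so dividing by that step gave tags per peak, from 6 to 243 in MPs and from 7 to 252 at 36 h. MP peaks were 150 bp wide and 36 h peaks 190 bp, but for 1 at a chromosome end. On the assumption that scores were scaled to 10000000 tags, the libraries held 5860000 and 6770000 tags, of which 32.02% and 27.6% lay in peaks. The IgG list had 268 peaks on these chromosomes. At genes that mark lineages, pairs of peaks were counted by nearest gene. The myeloid set (Csf1r, Spi1 and 14 others found in the annotation) had 144 pairs, of which Klf4 alone had 43. There were 18 for 10 granulocyte genes, 12 for 9 B cell genes, 6 for 6 erythroid genes and 5 for 6 T cell genes. The sets differ in size and in the space around their genes, so these counts alone do not give the lineage.

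The sites below were chosen by rank: the 2 largest rises and the 2 largest falls among sites found in both lists, and the 2 sites with most tags in each list only. Each is the mm9 plus strand, 151 bases centered on the peak. Capitals mark GAGGAA (a short PU.1 site), TGANTCA (AP-1), GGGA and TTTCC with 1 base between them (NF-kB) and GGAA and GAAA with 2 bases between them (a PU.1-IRF composite element), on either strand.
Pnoc (higher at 36 h), chr14:66033236-66033386: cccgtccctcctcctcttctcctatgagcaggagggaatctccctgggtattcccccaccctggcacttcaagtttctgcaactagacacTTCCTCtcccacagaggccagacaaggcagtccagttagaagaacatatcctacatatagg
Kif2c (higher at 36 h), chr4:116840001-116840151: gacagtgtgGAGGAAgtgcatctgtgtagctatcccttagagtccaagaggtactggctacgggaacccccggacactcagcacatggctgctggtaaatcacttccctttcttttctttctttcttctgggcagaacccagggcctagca
Nrp2 (36 h list only), chr1:62735773-62735923: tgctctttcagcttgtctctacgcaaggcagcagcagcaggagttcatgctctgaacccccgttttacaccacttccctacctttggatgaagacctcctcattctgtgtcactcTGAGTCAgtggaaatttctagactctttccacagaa
Cd81 (36 h list only), chr7:150227094-150227244: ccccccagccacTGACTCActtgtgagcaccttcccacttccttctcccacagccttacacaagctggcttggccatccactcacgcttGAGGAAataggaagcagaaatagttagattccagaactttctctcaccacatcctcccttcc
Tas2r134 (lower at 36 h), chr2:51493310-51493460: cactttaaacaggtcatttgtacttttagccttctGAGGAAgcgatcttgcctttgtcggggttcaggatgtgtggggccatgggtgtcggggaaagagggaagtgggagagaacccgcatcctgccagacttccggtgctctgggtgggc
Cdca7 (lower at 36 h), chr2:72276069-72276219: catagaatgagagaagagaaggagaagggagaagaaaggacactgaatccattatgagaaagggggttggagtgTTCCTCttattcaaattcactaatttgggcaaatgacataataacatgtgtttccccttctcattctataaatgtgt
Sfi1 (MP list only), chr11:3074313-3074463: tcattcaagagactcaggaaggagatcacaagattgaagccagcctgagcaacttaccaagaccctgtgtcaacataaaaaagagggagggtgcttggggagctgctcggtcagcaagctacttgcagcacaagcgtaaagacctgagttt
Lpar1 (MP list only), chr4:58519762-58519912: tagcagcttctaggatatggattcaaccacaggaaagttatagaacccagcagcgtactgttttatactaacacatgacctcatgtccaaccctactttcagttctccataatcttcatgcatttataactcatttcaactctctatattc
A short PU.1 site was present in both windows that rose and in both that fell. The 36 h windows near Nrp2 and Cd81 each held an AP-1 site, and the MP windows near Sfi1 and Lpar1 held none of the 4 motifs.

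Most PU.1 binding was found in both lists. Of the MP peaks, 73.9% (95% Wilson interval 73.6 to 74.2) overlapped a 36 h peak by at least 1 bp, and 78.3% (78.0 to 78.6) of the 36 h peaks overlapped an MP peak. Each overlap joined 1 peak to 1 other, which gave 56291 pairs with a median distance of 13 bp between centers. Pairs held 89.4% of the MP tags in peaks and 91.4% of the 36 h tags.

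Weak peaks made up most of what was not shared. Among MP peaks of 6 or 7 tags, 38.6% had a 36 h partner, and among those of 73 to 243 tags 99.4% did. Among 36 h peaks the share went from 37.9% at 7 tags to 99.7% at 73 to 252 tags. The 19868 MP peaks without partner had a median of 8 tags, and the 15588 such 36 h peaks a median of 9 tags. A site without a listed peak may thus still have held tags.

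**Figure D1:**
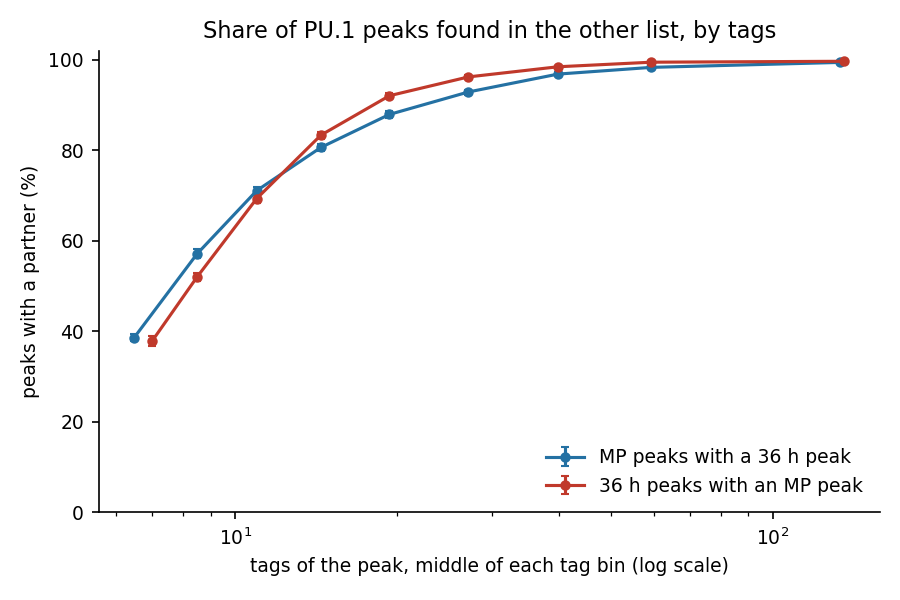
Share of PU.1 peaks with an overlapping peak in the other list (y axis, percent) against the tags of the peak (x axis, log scale), for MP peaks and 36 h peaks. Points are bins of tags and bars are 95% Wilson intervals. Both lines rise from under 40% at the weakest peaks to over 99% at the strongest.

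At the pairs, the split of a pair's tags between 36 h and MP was set against the median 36 h to MP ratio (1.06) in an exact binomial test, and p-values were adjusted over all pairs by the Benjamini-Hochberg method. Log2 ratios below are 36 h over MP relative to that median. At an adjusted p under 0.05 and at least a 2-fold change, 171 pairs were higher at 36 h (0.304% of all pairs) and 353 were lower (0.627%), together 524 or 0.931%. Higher pairs went from a median of 15 tags in MPs to 49 at 36 h, and lower pairs from 66 to 28. In these cultures a change of PU.1 binding per cell and a change in the mix of cells cannot be told apart. Without the test, 2260 pairs were at least 2-fold higher (4.01%) and 1918 at least 2-fold lower (3.41%).

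GC content moved with these ratios. Over the 18204 pairs with at least 60 tags in sum and a 72 h peak, the log2 ratio of the lowest GC quintile had a median of -0.34 from that of all these pairs, and the highest quintile one of 0.29. The median GC content of the 151 bp was 52.3% at higher pairs, 39.7% at lower pairs and 47.7% at uncalled pairs. With the median ratio taken within 10 bins of GC content, an alternative chosen after seeing the data, 92 pairs were higher and 94 lower, of which 82 and 87 were also in the first sets. The share of called pairs that were higher was thus 32.6% with 1 ratio, 49.5% with the ratio by GC bin and 14.1% with the ratio of library sizes, so the balance of rises and falls depended on the scaling. With the excess spread of all pairs added to the test, 38 were higher and 92 lower. Which of the libraries departs in GC content cannot be told apart with 1 library per condition. Over the same quintiles the ratio of 72 h to MP tags ran from -0.21 to 0.21, and that of 72 h to 36 h tags from 0.12 to -0.09.

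**Figure D2:**
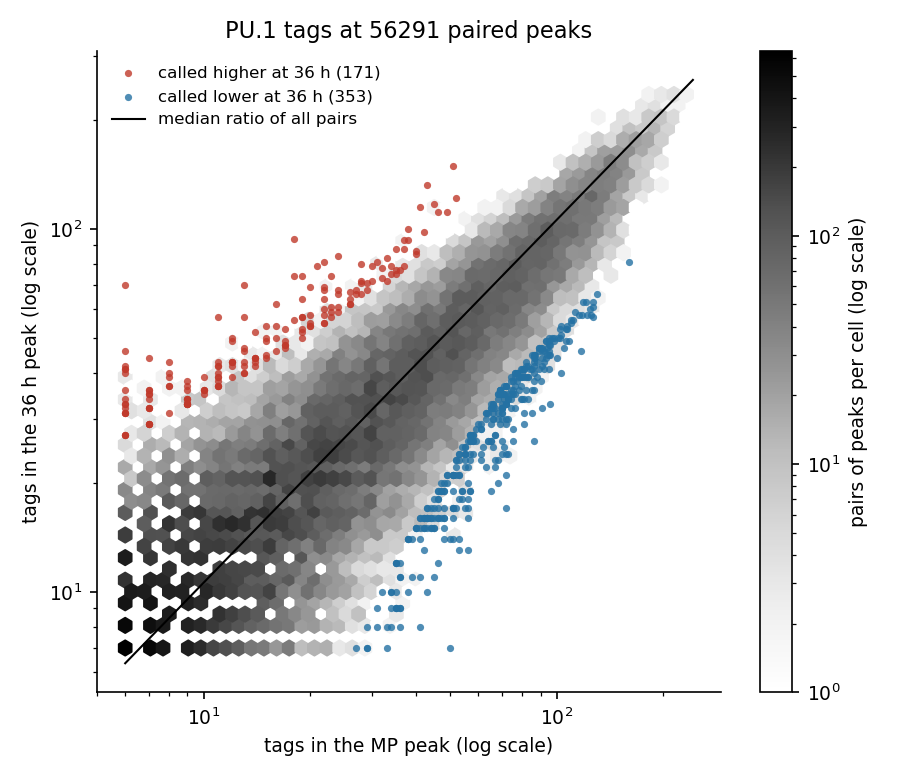
PU.1 tags at the 56291 pairs, with tags in MPs on the x axis and at 36 h on the y axis (both log scales). Grey cells show the number of pairs, the line is the median ratio, and coloured points are the 171 pairs called higher and the 353 called lower, which flank a single dense diagonal.

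The largest rise was in an intron of Pnoc, which encodes the precursor of the peptide nociceptin (chr14:66033216-66033406, 10735 bp from the start of transcription, TSS). Its peak held 6 tags in MPs, 70 at 36 h and 60 at 72 h. The log2 ratio was 3.46 (95% interval 2.27 to 4.96, adjusted p of the exact binomial test 2.16e-09). The value was 3.35 with the ratio by GC bin.

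Next were an intron of Kif2c, a mitotic kinesin, with 6 tags in MPs, 46 at 36 h and 33 at 72 h, and a site 9247 bp from Pgf, a ligand of the VEGF family. The Pgf site held 6, 42 and 8 tags at the 3 stages, so its 72 h peak was close to that of MPs. An intron of Wnt6, a secreted Wnt ligand, held 6, 41 and 24 tags, and an intergenic site 24446 bp from Tpm1, an actin-binding tropomyosin, held 6, 41 and 20.

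A site nearest to Nrp2, the neuropilin 2 receptor for semaphorins and VEGF, lay 81587 bp from its TSS, within an intron of Pard3b. It held 6 tags in MPs, 40 at 36 h and 19 at 72 h. The Ktn1 site held 7, 44 and 24 tags, the Foxp1 site (a forkhead repressor) 6, 34 and 35, and the Trim71 site 6, 33 and 22. The site near Mrps5 held 6 tags in MPs and 36 at 36 h, and no 72 h peak was listed there. All 10 of these rises were also called with the ratio by GC bin, and 7 with excess spread added, all but those near Mrps5, Foxp1 and Trim71. Each held 6 or 7 tags in MPs, and 6 is the lowest number in the MP list. Their order and size of rise thus rest on few MP tags, and intervals do not allow for choice by rank.

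The largest fall was 10354 bp from Tas2r134, a bitter taste receptor gene (chr2:51493290-51493480). This intergenic peak held 50 tags in MPs, 7 at 36 h and 16 at 72 h. The log2 ratio was -2.92 (-4.31 to -1.77, adjusted p of the exact binomial test 9.66e-06), and it was -3.10 with the ratio by GC bin.

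Falls next in size were near Cdca7, a MYC-responsive cell division gene, with 41 tags in MPs and 8 at 36 h, and in an intron of Trps1, a GATA-type repressor, with 33 and 7. At 72 h the Cdca7 site held 13 tags and the Trps1 site 35. An intron of Rad17, a DNA damage checkpoint gene, went from 72 to 17 tags, with 37 at 72 h. Sites near Bet1, 2310035C23Rik, Hcn4, Dera, St8sia4 and Commd8 completed the 10 largest falls. They held between 29 and 56 tags in MPs and between 7 and 13 at 36 h. The sites near Tas2r134, Trps1, St8sia4 and Commd8 held 7 tags at 36 h, the lowest number in the 36 h list. With the ratio by GC bin, 5 of the 10 falls were called, those near Tas2r134, Cdca7, 2310035C23Rik, Hcn4 and Rad17, and with excess spread added 5 were called, at the same sites.

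Peaks in 1 list only were tested against the lowest peak of the other list, since a missing peak is not a count of 0. This assumes that such a site held no more tags than that lowest peak, and peak calling can also drop a site for other reasons. Folds over that lowest peak were scaled by the median 36 h to MP ratio. A peak was called when its adjusted p was under 0.05, its fold at least 2, and no peak of the other list had its center within 500 bp. This called 263 of the 15588 such 36 h peaks (1.69%) and 477 of the 19868 such MP peaks (2.4%), all with at least 23 tags. These counts were 208 and 353, with the ratio by GC bin, of which 191 and 332 were in the first sets.

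The strongest 36 h peak without an MP peak lay 14011 bp from the TSS of Nrp2 (chr1:62735753-62735943), with 58 tags at 36 h and 27 at 72 h. Against the 6 tags of the weakest MP peak, scaled by the median ratio, this is 9.13-fold (adjusted p of the exact binomial test 6.61e-09). Nrp2 thus had the paired site above and a pair of further 36 h peaks, the other with 25 tags in its intron. These were 3 called gains among its 50 sites, as many as Vps13d had among 40, where 0.473% of all sites were called gains. Nrp2 was also the nearest gene to a called fall, 473877 bp from its TSS, which went from 70 tags in MPs to 32 at 36 h.

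A peak 11475 bp from the TSS of the tetraspanin gene Cd81 had 48 tags at 36 h and 38 at 72 h. A peak 41 bp from the TSS of Mcl1, which encodes a BCL2 family survival protein, held 47 tags at 36 h and 37 at 72 h. Peaks of 43 to 46 tags lay near Hexim2, Ctnnd2, Vwf, Gtf3c5, Kif5c, Slc2a1 (the glucose transporter GLUT1) and Cdk8. The Cdk8 peak was also listed with non-specific IgG, with 10 tags. At Gtf3c5 and Slc2a1 no 72 h peak was listed.

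The strongest MP peak without a 36 h peak lay in an intron of Sfi1, a centrosome gene (chr11:3074313-3074463), with 129 tags in MPs and 163 at 72 h. The nearest 36 h peak center was 14807 bp away. This was the only one of the 20 strongest peaks in 1 list only with over 100 tags. An intron of Lpar1, a lysophosphatidic acid receptor, had 62 tags in MPs and 56 at 72 h. Peaks near Bcas2, Uimc1, Mid1, Tmem170b, Rap1gds1, Cobll1, Gm826 and Fgd4 held 54 to 59 tags in MPs and 33 to 66 at 72 h. The nearest 36 h peak center was 529 bp away for Rap1gds1, and 1003 to 1182 bp for Bcas2, Uimc1, Tmem170b, Gm826 and Fgd4. It was 2899 bp away for Mid1, 3784 bp for Lpar1 and 9149 bp for Cobll1. All 10 of these MP peaks were listed again at 72 h.

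**Figure D3:**
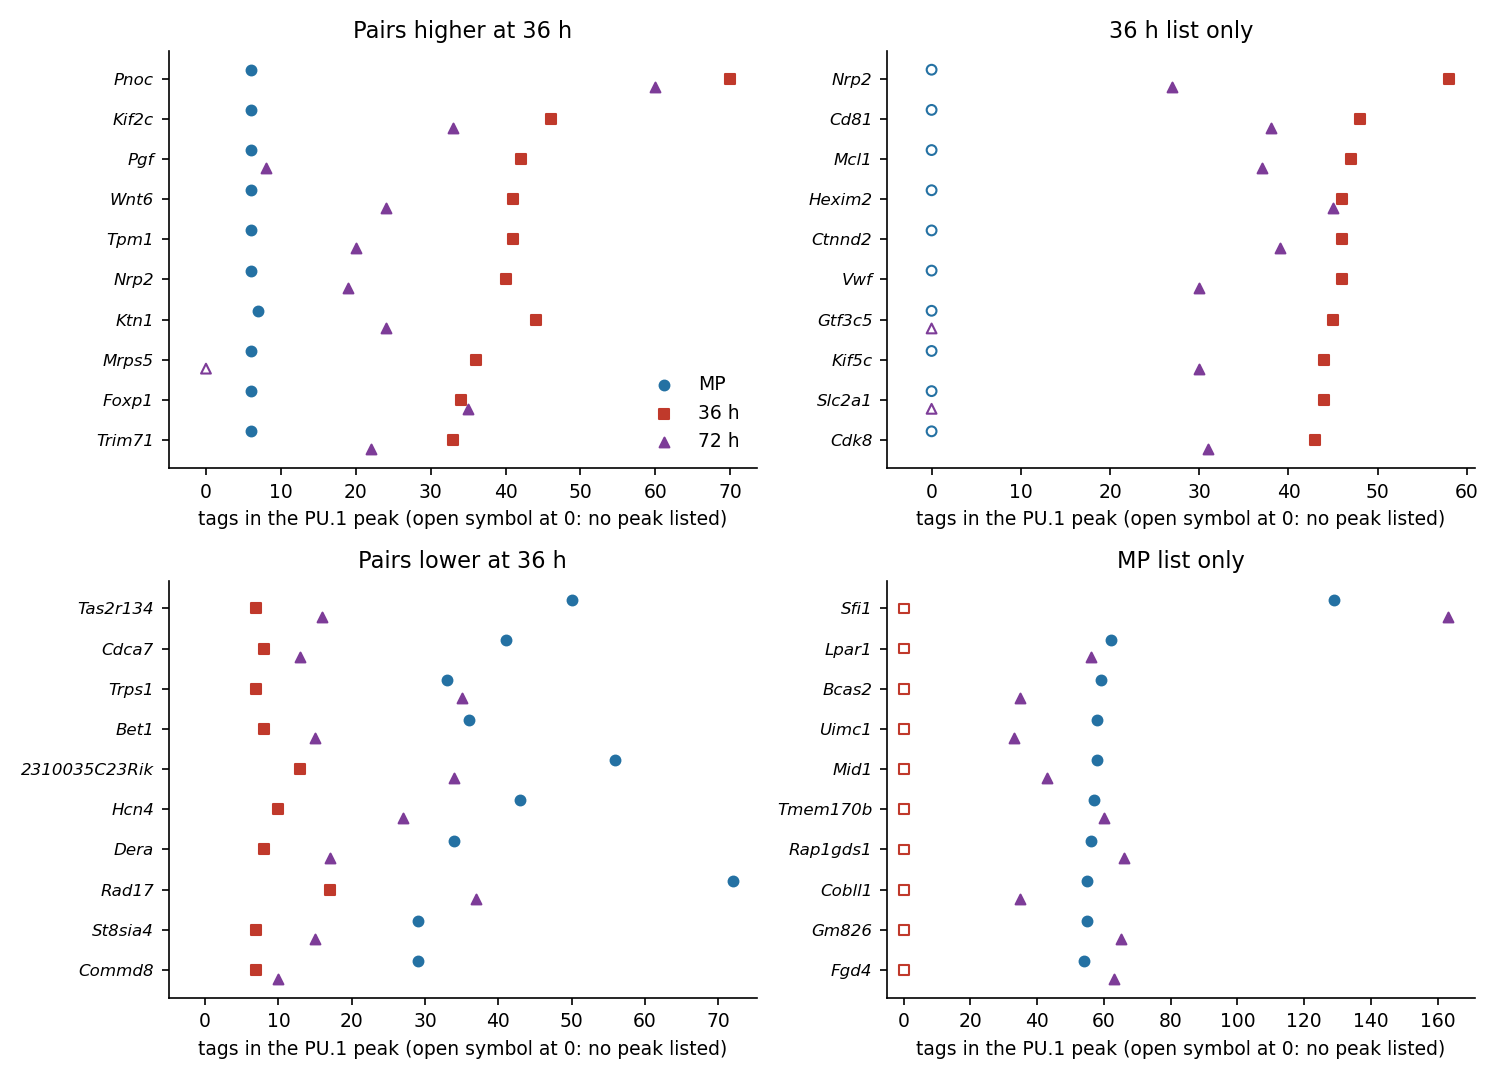
Tags of the PU.1 peak in MPs (circles), at 36 h (squares) and at 72 h (triangles) at the 10 sites of each class ranked first. Each row is a site named by its nearest gene, the x axis is tags, and an open symbol at 0 stands for no listed peak. The Sfi1 peak reached 129 tags in MPs and 163 at 72 h with no 36 h peak listed.

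PU.1 peaks at 72 h, a library that chose none of these sites, covered 98.8% of the higher pairs, 100% of the lower pairs, 73.4% of the 36 h-only peaks and 74.0% of the MP-only peaks. Uncalled pairs of like tags were covered at 99.4%, 99.7%, 93.4% and 94.2%. Such pairs are listed both in MPs and at 36 h by definition. They are thus no like reference for the 36 h-only and MP-only peaks, and the lower cover of those cannot be read against them. Median tags at 72 h were 36 at higher pairs and 48 at lower pairs, between the medians in MPs and at 36 h in both cases. The pairs were chosen for a large difference between MPs and 36 h, so 72 h medians between them can follow from that choice. Of the 169 higher pairs with a 72 h peak, 78 were at least 2-fold above MPs there. Of the 353 lower pairs, 47 were at least 2-fold below MPs there. Where 72 h peaks were present, they had a median of 21 tags at 36 h-only sites and 28 at MP-only sites.

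The DNA under rises and falls differed in the NF-kB site and in the PU.1-IRF element. Motifs were searched on both strands of the 151 bp around each center, and shares were set beside uncalled pairs weighted to the same tags and GC content. The PU.1-IRF element was present at 41.6% (36.6 to 46.8) of the lower pairs, 147 of 353, against 11.2% of such uncalled pairs. It was at 15.1% (12.2 to 18.6) of the MP-only peaks, against 7.55%, and at 1.75% (0.598 to 5.03) of the higher pairs, 3 of 171, against 6.86%. Over all 91747 sites 6.21% held it.

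The NF-kB site was at 7.60% (4.50 to 12.6) of the higher pairs, 13 of 171, against 0.390% of uncalled pairs of like tags and GC content. It was at 3.42% (1.81 to 6.37) of the 36 h-only peaks, 9 of 263, against 0.253%, and at 1 of the 353 lower pairs and 2 of the 477 MP-only peaks. Over all sites 0.279% held it.

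AP-1 sites (TGANTCA) were at 24.0% (18.2 to 30.9) of the higher pairs and 21.3% (16.8 to 26.6) of the 36 h-only peaks, against 11.6% and 9.86%. They were at 6.52% (4.38 to 9.59) of the lower pairs, against 12.3%. The NFAT core TGGAAA was at 28.7% (22.4 to 35.8) of the higher pairs, against 12.1%. Of the 13 higher pairs with an NF-kB site, 8 had an NFAT match that overlapped it, since both share letters, and 41 of the 171 higher pairs (24.0%) had an NFAT core and no NF-kB site. The short PU.1 site was at 66.1% of the higher and 54.4% of the lower pairs, against 61.8% and 59.9%. In 54 of the 147 lower pairs with the PU.1-IRF element a short PU.1 match overlapped it.

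Contrasts in these motifs were also computed among the pairs called with the ratio by GC bin. There the PU.1-IRF element was at 56.4% of 94 lower pairs against 10.2% of uncalled pairs of like tags and GC content, and at 2.17% of 92 higher pairs against 8.65%. The NF-kB site was at 10.9% of the higher pairs against 0.321%, AP-1 at 23.9% against 12.2%, and NFAT at 33.7% against 13.8%. The short PU.1 site was at 43.6% (34.04 to 53.7) of the lower pairs against 61.5%, a wider gap than among the lower pairs called with 1 ratio, and at 65.2% of the higher pairs against 61.5%. The median GC content of these sets was 49.3% and 45.03%.

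**Figure D4:**
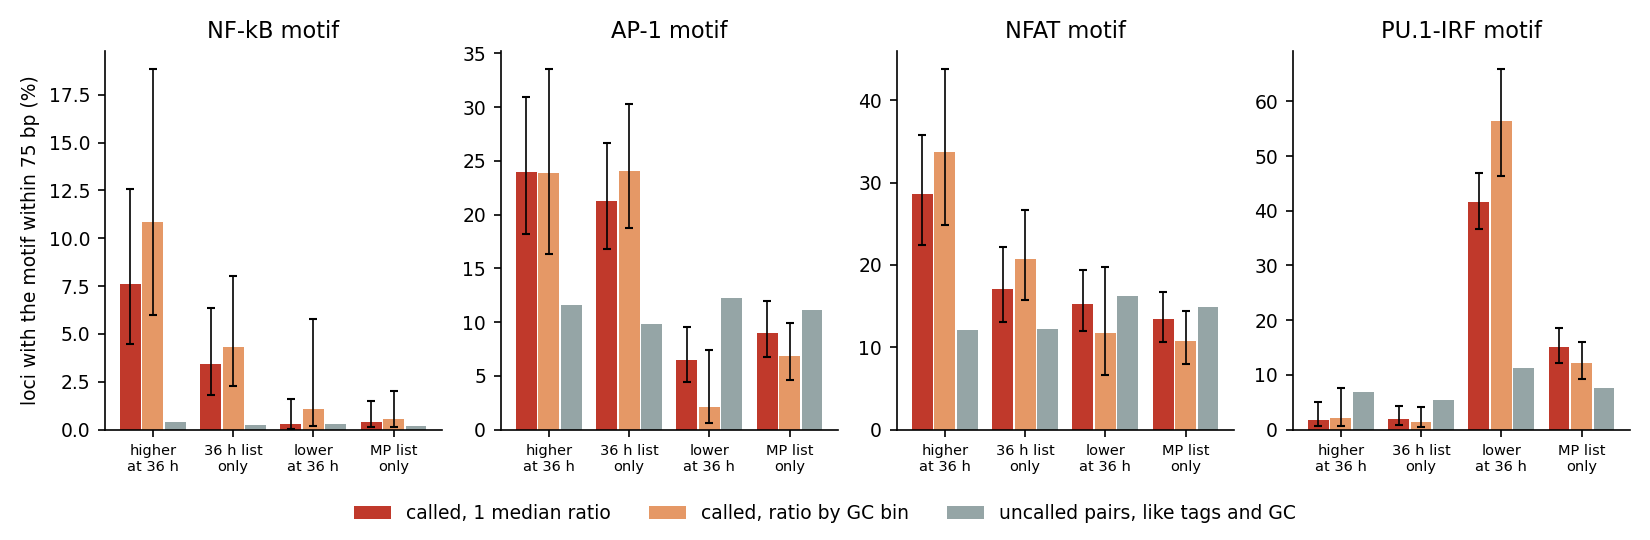
Share of sites (y axis, percent) with an NF-kB, AP-1, NFAT or PU.1-IRF motif within 75 bp of the peak center, for the 4 classes on the x axis. Bars give sites called with 1 median ratio, sites called with the ratio by GC bin, and uncalled pairs of like tags and GC content, and whiskers are 95% Wilson intervals over sites. The PU.1-IRF element stands at 41.6% of the lower pairs and 1.75% of the higher pairs.

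Over the 18263 pairs with at least 60 tags in sum, the 1690 with a PU.1-IRF element had a median log2 ratio of -0.37, against -0.07 for the rest. Within the 5 GC quintiles the difference between pairs with and without it ran from -0.31 to -0.19, so it was negative in each. The 63 pairs with an NF-kB site had a median of 0.24, against -0.08 for the rest, and the difference ran from 0.15 to 0.50 over the quintiles. The 2204 pairs with an AP-1 site had a median of 0.02 against -0.11, with differences of 0.09 to 0.15. For the NFAT core the difference over all these pairs was -0.04. Within quintiles it ran from -0.0024 to 0.05 and was negative in 1 of the 5. The excess of NFAT cores among called pairs thus went with at most a small lean over all pairs. Among the 17874 of these pairs that were not called, the difference was -0.27 for the PU.1-IRF element, 0.27 for the NF-kB site (56 pairs), 0.11 for AP-1 and -0.03 for NFAT. These medians describe sites in 1 pair of libraries and sites are not replicates.

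**Figure D5:**
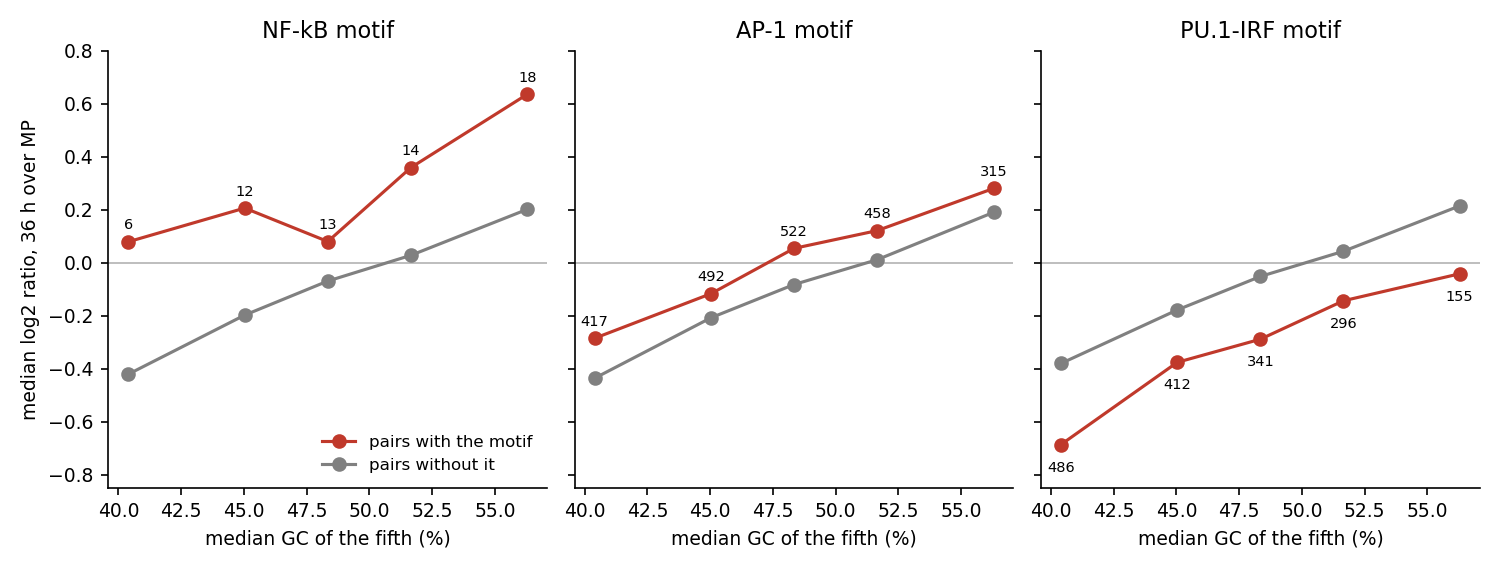
Median log2 ratio of PU.1 tags at 36 h over MP (y axis) in each GC quintile (x axis, median GC of the 151 bp in percent), for pairs of at least 60 tags with and without a motif. Numbers beside the red points are pairs with the motif. The lines of pairs without the motif rise with GC content in each panel, with NF-kB and AP-1 pairs above and PU.1-IRF pairs below the others in all 5 quintiles.

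The sites below, chosen after their values were seen, are pairs among the largest changes that carry the NF-kB site (risen) or the PU.1-IRF element (fallen), in the same marking as above.
Snupn (higher at 36 h), chr9:56810341-56810491: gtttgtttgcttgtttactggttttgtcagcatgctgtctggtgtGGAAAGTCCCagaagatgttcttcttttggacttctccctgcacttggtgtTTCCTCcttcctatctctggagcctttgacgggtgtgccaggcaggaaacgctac
Wdr27 (higher at 36 h), chr17:14963907-14964057: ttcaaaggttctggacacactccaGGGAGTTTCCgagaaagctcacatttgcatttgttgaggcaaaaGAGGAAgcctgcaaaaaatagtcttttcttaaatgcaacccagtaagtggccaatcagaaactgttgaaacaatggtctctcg
Rad17 (lower at 36 h), chr13:101412617-101412767: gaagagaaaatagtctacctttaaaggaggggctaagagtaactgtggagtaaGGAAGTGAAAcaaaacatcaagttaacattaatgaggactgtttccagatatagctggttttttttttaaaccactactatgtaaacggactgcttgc
Sec16b (lower at 36 h), chr1:159447625-159447775: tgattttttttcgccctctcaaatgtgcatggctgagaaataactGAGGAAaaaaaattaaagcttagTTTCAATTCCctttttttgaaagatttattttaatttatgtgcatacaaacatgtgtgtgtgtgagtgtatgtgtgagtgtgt
The Snupn site held 6 tags in MPs and 32 at 36 h, and the Wdr27 site 18 and 74. The Rad17 site, already described, fell from 72 to 17 tags, and the Sec16b site from 53 to 13.

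Among the 13 rises with an NF-kB site, the one with most tags lay 2962 bp from Sbno2, a transcriptional corepressor gene, with 51 tags in MPs, 149 at 36 h and 119 at 72 h (log2 ratio 1.46, adjusted p of the exact binomial test 7.33e-07). Introns of Pde4b, a cAMP phosphodiesterase, and Bcas1 held 12 and 24 tags in MPs, and 43 and 84 at 36 h. The others were nearest to Gpr157, Tspan18, Trib2, 6430527G18Rik, Gpr110, Trps1, Vps13a and Pde4dip. Under the GC-bin ratio 10 of the 13 were called, all but those near Gpr110, Trib2 and Tspan18. At Trps1 the NF-kB peak was 85 bp from the TSS and rose from 14 to 42 tags, whereas the Trps1 intron site above fell from 33 to 7.

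The 36 h-only peaks with an NF-kB site included one 1325 bp from Aif1, which encodes the macrophage protein IBA1, with 36 tags, and one 169 bp from Cd74, the MHC class II invariant chain, with 28 tags.

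Falls with the PU.1-IRF element were nearest to Rad17, Sec16b, Racgap1, Gm10604, Tbl1xr1, Mef2a, Apc, 3110035E14Rik, Ipo11 and Tmtc2 among the 10 largest. Among them the Mef2a site held 46 tags in MPs, 12 at 36 h and 32 at 72 h. Of the 147 such falls, 49 were also called with the ratio by GC bin. The Racgap1 window also held the only NF-kB site among the lower pairs.

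Position was set beside uncalled pairs weighted to like tags. Within 1 kb of a TSS lay 12.3% (8.17 to 18.04) of the higher pairs and 17.5% (13.4 to 22.5) of the 36 h-only peaks, against 14.1% and 15.9% of uncalled pairs of like tags. Lower pairs were at 5.10% (3.25 to 7.92) against 13.4%, and MP-only peaks at 8.81% (6.58 to 11.7) against 15.8%. Beyond 100 kb lay 11.9% of the lower pairs, against 5.38%. Weighted to the same GC content as well, uncalled pairs lay within 1 kb at 18.6% for the higher pairs, 20.9% for the 36 h-only peaks, 8.36% for the lower pairs and 11.03% for the MP-only peaks, and beyond 100 kb at 6.87% for the lower pairs. Under the GC-bin ratio the shares within 1 kb were 7.61% of the higher and 6.38% of the lower pairs, so the gap between these classes was narrower. Introns held 53.2% of the higher and 52.4% of the lower pairs, against 51.8% and 52.1%.

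Uncalled pairs within 50 kb leaned the same way as a called neighbour. The 989 near a higher pair had a median log2 ratio of 0.17 and the 1830 near a lower pair a median of -0.08, with 0.00 over all uncalled pairs. Near the 36 h-only peaks the median was 0.06 (1811 uncalled pairs) and near the MP-only peaks -0.06 (3201). These medians were not matched on tags, and over all pairs of 89 to 135 tags in sum the median was also -0.08. GC content also varies over such distances, and its part and that of tags were not tested.

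Genes with several losses were counted by nearest TSS, where 0.905% of all sites were called losses and genes with more sites have more chances of one. Cited2, a CBP/p300-binding coregulator, had 5 called losses among its 97 sites, all of them at least 163073 bp from its TSS. The nearest of them held 43 tags in MPs and 38 at 72 h with no 36 h peak listed. Csl had 4 among 11 sites, between 46243 and 126916 bp away, and Elmo1, an activator of RAC signalling in engulfment, had 4 among 76, within its introns. At Elmo1 the 3 pairs went from 31 to 8, 51 to 21 and 85 to 31 tags. Vrk2 had 3 among 19 and Tbl1xr1 3 among 64. On the side of gains, Adrbk2 (a receptor kinase now named Grk3) had pairs that went from 37 to 93 and from 21 to 79 tags, and Pde4b pairs from 45 to 117 and from 12 to 43. With the ratio by GC bin the pairs near Cited2, Csl, Vrk2 and Tbl1xr1, the 37-tag pair near Adrbk2 and the 31-tag pair near Elmo1 were not called, nor was 1 MP-only peak each of Cited2 and Tbl1xr1. With excess spread added, the 12-tag pair of Pde4b, both pairs near Csl, the 31-tag and 51-tag pairs of Elmo1 and 1 pair each of Cited2 and Tbl1xr1 were not called.

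At the best known regulators of OC differentiation the strongest PU.1 peaks showed no called change. The highest pair of Nfatc1, the master factor of OC differentiation, held 171 tags in MPs, 177 at 36 h and 168 at 72 h (log2 ratio -0.03, interval -0.34 to 0.28). That of Fos held 105, 114 and 103 tags, and that of Runx1 182, 181 and 159. For the PU.1 gene itself (Spi1, listed as Sfpi1) the values were 68, 84 and 90, and for Csf1r, the CSF1 receptor, 118, 150 and 127.

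Among factors that restrain OCs, the highest Irf8 pair held 109, 126 and 129 tags and the highest Bcl6 pair 103, 120 and 124. Among resorption genes, the highest pair of Ctsk (cathepsin K) held 64, 46 and 54 tags, that of Acp5 (TRAP) 45, 59 and 56, and that of Oscar 14, 11 and 19. Fosl2 had 25, 36 and 36. None of these 11 pairs changed 2-fold, and intervals were widest at low tags, from -1.71 to 0.82 for Oscar. A 2-fold change was outside the interval for all but Ctsk, Fosl2 and Oscar.

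Called pairs nearest to the listed genes were about as frequent as over all pairs. Of the 1323 pairs nearest to a gene of the 12 lists, 12 were called (0.907%), against 0.931% of all pairs. Of the unpaired peaks nearest to a listed gene, 7 of 309 at 36 h (2.27%) and 13 of 390 in MPs (3.33%) were called, against 1.69% and 2.4% of all unpaired peaks. Of the 134 pairs nearest to 21 resorption and fusion genes, none was higher and 1 was lower (0.746%, against 0.304% and 0.627% of all pairs), a site 19854 bp from Atp6v0d2, a V-ATPase subunit needed for cell fusion, with 45 tags in MPs, 15 at 36 h and 28 at 72 h. A 36 h-only peak of 34 tags lay 11 bp from the TSS of Ocstamp, a fusion protein (listed as 4833422F24Rik), and no 72 h peak was listed there. Snx10, a sorting nexin needed for resorption, had a 36 h-only peak of 26 tags and an MP-only peak of 29 tags. Itgav had an MP-only peak of 23 tags.

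Of the 287 pairs nearest to 22 factors that promote OCs, none was higher and 3 were lower (1.05%, against 0.627% of all pairs). They were nearest to Hif1a (72 tags in MPs, 37 at 36 h), Mef2c (69 and 36) and Prdm1, the repressor BLIMP1 (93 and 49). All 3 were far from the TSS, at 128313 bp for Hif1a, in an intron of Prkch, 424567 bp for Mef2c and 110368 bp for Prdm1. A 36 h-only peak of 33 tags lay 38889 bp from Fos, and one of 34 tags 51561 bp from Ppargc1b, a coactivator of mitochondrial genes. Of the 212 pairs nearest to 12 factors that restrain OCs, 1 was higher and 1 was lower (0.472% each). The higher one lay 61283 bp from Id2 and went from 32 to 78 tags. The lower one lay 17800 bp from Irf4 and went from 88 to 43.

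RANK signalling had 3 lower pairs of 145 (2.07%, against 0.627% of all pairs) and no higher pair. These lay in introns of Map3k7, the kinase TAK1, with 68 tags in MPs and 23 at 36 h, and of Tnfrsf11a, which encodes RANK, with 58 and 26, and 53923 bp from Tab2, a TAK1 adaptor, with 48 and 14. The Map3k7 and Tab2 windows held the PU.1-IRF element. At 72 h the Map3k7 site held 67 tags and the Tnfrsf11a site 58. Traf2 had a 36 h-only peak of 27 tags.

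Csf1r had an intron pair that went from 9 to 38 tags, with 16 at 72 h, and an MP-only peak of 25 tags. Csf2rb, the shared beta chain of the GM-CSF receptor, had a pair that went from 40 to 85. A site 327797 bp from Klf4 fell from 57 to 19 tags. MP-only peaks lay near Ccr2 (34 tags), the receptor of monocyte recruitment, near Emr1 (40), which encodes F4/80, and near Ccl2 (41), Ccl4 (25) and Tlr4 (32) of the inflammatory list. Fcer1g and Sykb of the ITAM pathway had MP-only peaks of 24 and 26 tags. A 36 h-only peak of 23 tags lay 8798 bp from Klf4, and one of 28 tags 170980 bp from the cell cycle gene Ccnd1. Cdk6 was the nearest gene to MP-only peaks of 33 tags, 144764 bp from its TSS, and 26 tags, in its intron. Ms4a1, which encodes the B cell antigen CD20, had an MP-only peak of 31 tags.

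Median log2 ratios of the pairs of these lists lay between -0.08 and 0.08 for the 8 lists with at least 98 pairs, against 0.00 over all pairs. With the ratio by GC bin, 3 of the 12 called pairs kept their call, those near Klf4, Map3k7 and Tab2. The same 3 did with excess spread added. With the GC-bin ratio the 36 h-only peak of Klf4 and the MP-only peak of Ccl4 were not called. Several listed peaks in 1 list only lay close to a peak of the other list. Its center was 510 bp away for the 33-tag Cdk6 peak, 524 bp for Itgav, 595 bp for Tlr4 and 645 bp for Ccnd1. It was 675 bp away for Ccl2, 684 bp for the 26-tag Snx10 peak, 890 bp for Sykb and 943 bp for Csf1r. For the others it was over 1000 bp away.

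MITF, the partner factor of PU.1 in OCs, was listed at 3.51% of the higher and 27.8% of the lower pairs in MPs, and at 9.94% and 4.53% at 36 h. Uncalled pairs with like PU.1 tags in the same condition had MITF peaks at 1.62%, 33.2%, 14.1% and 2.45% respectively. IgG peaks covered 0 of the 171 higher, 0 of the 353 lower and 0 of the MP-only sites, and 1 of the 263 36 h-only sites, the one near Cdk8.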

How the data were processed

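The authors deposited 1 peak list per library, and its score counts the tags of a peak after HOMER's scaling for library size. The submitters' processing notes name CASAVA 1.8, Bowtie2 and HOMER with mm9, and further versions and settings are not given in the sources used here. The scale of 10000000 tags is assumed, and intervals and tests cover counting error only. The sites and lists were chosen with earlier results of these data known.

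Lists were read with Python 3.11.15 (pandas 2.3.3, scipy 1.17.1, pysam 0.24.0). Scores were divided by the worth of 1 tag (1.71 for MPs, 1.48 at 36 h), to within 0.0502. Genes are the nearest GENCODE protein-coding TSS on NCBIM37, the mm9 assembly, whose chromosome lengths match, and distances within 1 kb use the TSS of any gene. Named were the 10 largest called pairs each way, the 10 called peaks with most tags in each list, the 5 genes with most called peaks each way, genes of 12 lists with a called peak and the highest pair of 11 regulators. The test of pairs was checked on simulated tags, with changes set only in pairs of at least 60 tags. These were drawn at 1 ratio, with no GC trend and no excess spread. The check thus does not cover those features of the data. Alternatives were other matching, scaling, tag minimum, fold, gene set and motif window. Reads were not analysed, so no peak was called again.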

Additional observations from a re-analysis of the deposited data

How the results depend on the processing

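No paired analysis was possible because each condition was 1 library. Matching peaks by centers within 100 bp gave shares of 73.3% of the MP peaks and 77.7% of the 36 h peaks, an overlap of 50% of the narrower peak gave 73.2% and 77.6%, and dropping peaks under 2 times a list's lowest score gave 77.4% and 84.4%. Of the 171 higher and 353 lower pairs, the counts became 38 and 92 with excess spread added, 92 and 94 with the ratio by GC bin, and 47 and 46 with both. The lower pairs numbered 769 with the ratio of library sizes and 202 with the ratio by bins of summed tags. With the ratio by GC bin, 7.61% of the higher pairs lay within 1 kb of a TSS, and the lower pairs held the PU.1 motif GAGGAAGT at 19.1%, AP-1 at 2.13%, PU.1-IRF at 56.4% and NFAT at 11.7%. In a window of 101 bp, AP-1 was at 13.5% of the higher pairs (8.43% of uncalled pairs of like tags), 15.97% of the 36 h-only peaks, 4.25% of the lower pairs and 5.45% of the MP-only peaks, and NFAT at 21.6%, 12.5%, 9.35% and 8.39%. The other 57 of 84 alternative values stayed within 1.5 times the count or within the interval of the share. The cause of these changes was not tested. Tags set a floor, since no pair under 33 tags in sum was called.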
